A study of Mus musculus with 16 samples.

Results

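Citrus stimulation was compared with vehicle in the reporter-positive (GFP+) cells of the olfactory mucosa of S100a5-tauGFP mice. The comparison used 8 of the 16 arrays of the study, namely the 4 citrus and the 4 vehicle arrays that the labels give as GFP+, and all 19572 probe sets with 1 gene symbol. All mice carry the same reporter, tau-GFP under control of S100a5. Olfactory sensory neurons (OSNs) make the S100a5 protein, which binds calcium, when they are active, so the GFP+ gate takes cells in which that gene is on, also in vehicle. The 24 mice were of both sexes, 7 to 12 weeks old, and sat singly for 40 h in chambers with clean air flowing at 3.1 L per min. From 26 h on, citrus mice received pulses of 100% citrus accord, an odour mixture, and vehicle mice pulses of filtered air, for 10 s every 20 min. Each array held RNA of cells sorted from a pool of 3 mice, and the 8 other arrays held the GFP- cells of the same stimuli.

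Each mature OSN expresses 1 odorant receptor gene. An odorant that binds the receptor raises cyclic AMP through the olfactory G protein and adenylyl cyclase 3, opens a cation channel and fires the neuron. Part of OSN gene expression follows this activity, including adhesion molecules that sort OSN axons in the olfactory bulb, and so do genes of the immediate early response in many neurons.

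Values are log2 signals as deposited, and a difference of 1 is 2-fold on that scale, which a signal transformation can stretch. Negative-control probes, which match no mouse gene, gave a background: their 95th percentile lay between 8.75 and 9.27 on citrus and between 8.90 and 9.71 on vehicle GFP+ arrays. Between 5458 and 6203 of the tested probe sets exceeded it on a citrus array, and between 4713 and 6007 on a vehicle array. GFP+ arrays correlated at r = 0.989 to 0.992 within citrus, 0.988 to 0.990 within vehicle and 0.987 to 0.993 between them, across probe sets.

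The sorted cells carried the transcripts of mature OSNs on all 8 arrays. The mean of 15 mature OSN markers lay between 16.23 and 16.28 in citrus and between 16.09 and 16.27 in vehicle, and 14 of the 15 exceeded the background on every array. Of 19 myeloid and lymphoid markers 17 lay under it on all 8 arrays, with means of 5.24 to 5.55 in citrus and 5.16 to 5.60 in vehicle. Basal cell, microvillous, glial, endothelial and stromal markers were under it without exception. Sustentacular, Bowman gland and ciliated markers were partly above it, and their values follow further down.

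With citrus, 4 genes were higher in GFP+ cells and 0 were lower past the threshold of adjusted p = 0.05. The 4 were Pcdh10 (protocadherin 10, an adhesion molecule of axons), Camk2n1 (an inhibitor of calcium/calmodulin-dependent kinase II, CaMKII), Sema7a (semaphorin 7A, a membrane-anchored guidance signal) and the odorant receptor gene Olfr353. They made up 0.0204% of the probe sets tested by limma with Benjamini-Hochberg adjustment, against 0% lower. At an unadjusted p under 0.05, 404 probe sets (2.06%) were higher and 390 (1.99%) were lower. The median difference of all probe sets was 0.01, and 5 and 95% of them lay below -0.35 and 0.39. A typical difference had a standard error (SE) of 0.20.

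**Figure D1:**
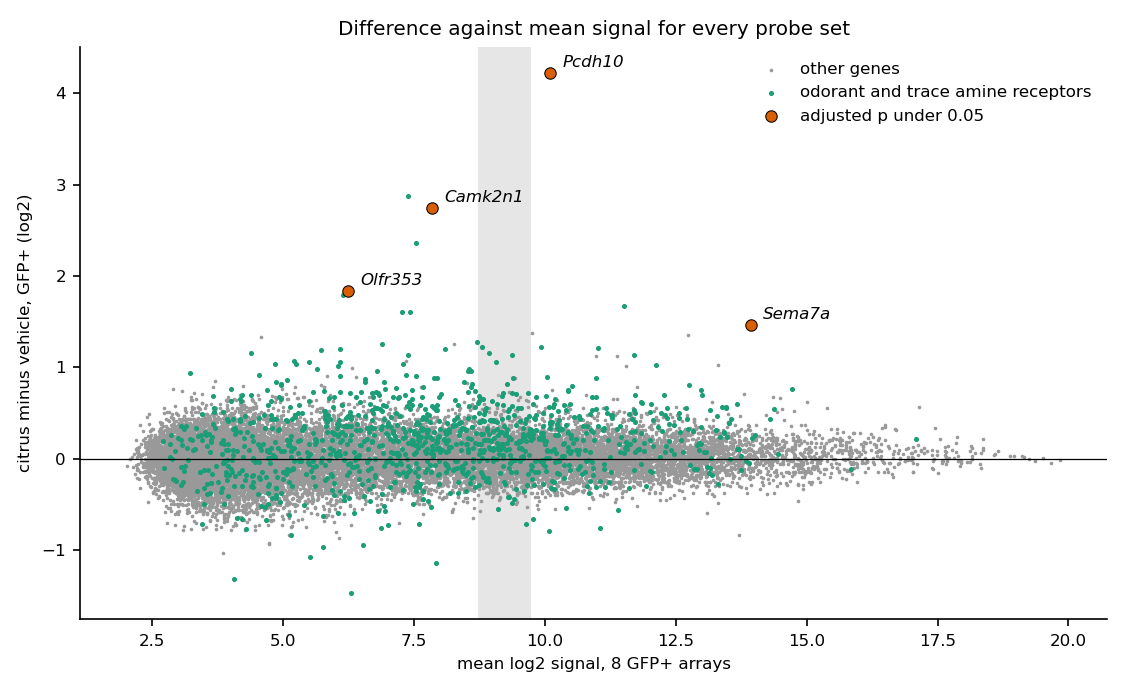
Citrus minus vehicle in GFP+ cells (log2, y axis) against the mean log2 signal over the 8 GFP+ arrays (x axis), 1 point per probe set. Odorant and trace amine receptors are green, the 4 genes past the threshold orange and the grey band spans the 95th percentile of negative-control probes, 8.75 to 9.71. Sema7a and Pcdh10 lie to the right of the band, Camk2n1 and Olfr353 to its left.

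The DNA before the transcription start of these genes is shown because their promoters are where regulators of activity-linked transcription could bind. Of the 4 genes, 3 had an entry in the RefSeq promoter table for mouse build GRCm38.p6. Each line gives the 250 bases upstream of the start, 5′ to 3′ on the gene's strand, with a match of TGACG (the core of the CREB site) or CAGCTG (an E-box, the site of basic helix-loop-helix factors) on either strand in capitals. Pcdh10 is on the plus strand at chr3:45378148-45378397, Sema7a on the plus strand at chr9:57939862-57940111 and Olfr353 on the minus strand at chr2:36890847-36891096.
Pcdh10: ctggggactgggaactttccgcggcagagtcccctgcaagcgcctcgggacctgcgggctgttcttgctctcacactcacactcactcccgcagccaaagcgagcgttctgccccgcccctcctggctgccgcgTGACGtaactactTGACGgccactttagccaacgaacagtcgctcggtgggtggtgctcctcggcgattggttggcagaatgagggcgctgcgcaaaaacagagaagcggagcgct
Sema7a: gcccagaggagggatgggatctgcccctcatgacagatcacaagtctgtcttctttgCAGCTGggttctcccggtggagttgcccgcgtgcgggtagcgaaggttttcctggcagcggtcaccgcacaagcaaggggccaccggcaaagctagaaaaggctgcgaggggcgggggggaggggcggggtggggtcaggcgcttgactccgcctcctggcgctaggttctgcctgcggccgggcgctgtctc
Olfr353: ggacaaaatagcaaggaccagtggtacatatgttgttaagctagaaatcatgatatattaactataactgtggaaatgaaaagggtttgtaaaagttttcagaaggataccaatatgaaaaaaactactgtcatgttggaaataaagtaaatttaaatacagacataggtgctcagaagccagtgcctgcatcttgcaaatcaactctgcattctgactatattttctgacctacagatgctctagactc
The Pcdh10 window held TGACG at 116 and 103 bases before the start. The Sema7a window held CAGCTG at 193 bases before the start. No searched motif was found in the Olfr353 window, and neither the full CREB site TGACGTCA, which contains TGACG, nor the site of serum response factor (SRF) was found in any of the 3. Among 32851 promoter windows of 250 bases, 17.8% held TGACG, 1.55% TGACGTCA, 0.0609% the SRF site and 13.0% CAGCTG on either strand, so that matches of the short motifs are common.

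Pcdh10 changed most. Its log2 signal was 12.76, 11.92, 12.19 and 11.94 on citrus replicates 1 to 4 and 8.15, 6.84, 8.70 and 8.22 on vehicle replicates 1 to 4. The lowest citrus array lay more than 3 units above the highest vehicle array. The means were 12.20 ± 0.39 (SD, n = 4) and 7.98 ± 0.80 (SD, n = 4), and the difference was 4.22 ± 0.38 (SE; 95% interval 3.42 to 5.03; limma adjusted p = 6.4e-05). On every vehicle array Pcdh10 was below the negative-control 95th percentile, and measured against that level citrus was at least 7.23-fold higher, on the deposited scale. Pcdh10 belongs to the non-clustered protocadherins, of which 11 were measured, and among the other 10 the differences lay between -0.16 (Pcdh18) and 0.41 (Pcdh12). Pcdh7, Pcdh17 and Pcdh19, which GFP+ cells also expressed above background on average, were at 0.02 ± 0.23, -0.15 ± 0.23 and 0.00 ± 0.21 (SE).

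Sema7a was high in all arrays and rose by a smaller but very even step. It measured 14.80, 14.68, 14.60 and 14.58 in citrus and 13.26, 13.18, 13.27 and 13.11 in vehicle. The groups did not overlap, and the difference of 1.46 ± 0.14 (SE; interval 1.17 to 1.76) gave a limma adjusted p of 8.4e-05. After each array was centred on its receptor median, a level that itself differed between the groups, the difference was 1.22 and no longer passed (adjusted p = 0.0872). Of 19 semaphorins the other 18 lay between -0.25 (Sema3b) and 0.20 (Sema4b, Sema4d and Sema6b). Plxnc1, a plexin that binds semaphorin 7A, was at -0.37 ± 0.20 (SE, limma unadjusted p = 0.0751), under background on every GFP+ array. Itgb1, the integrin subunit that semaphorin 7A also signals through, was at 0.03.

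Camk2n1 was low in vehicle and reached about the background level in citrus. Its values were 9.66, 8.60, 9.51 and 9.06 in citrus and 6.21, 6.24, 7.13 and 6.30 in vehicle. Citrus replicates 1 and 3 alone exceeded the negative-control 95th percentile of their array. The difference was 2.74 ± 0.28 (SE; interval 2.14 to 3.34; limma adjusted p = 1.7e-04), with no overlap. Its target kinase did not pass the test: the 4 CaMKII subunit genes lay between -0.24 (Camk2b) and 0.04 (Camk2d). The other inhibitor gene, Camk2n2, was at 0.01 ± 0.22 (SE). Of these genes only Camk2d exceeded background on all 8 GFP+ arrays. Camk2g exceeded it on 3, and Camk2a, Camk2b and Camk2n2 on 0.

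Olfr353 passed narrowly and at a low signal. It measured 7.27, 7.46, 7.42 and 6.45 in citrus and 5.27, 5.28, 5.13 and 5.60 in vehicle. All 8 arrays were under the negative-control 95th percentile. The groups did not overlap and the difference was 1.83 ± 0.29 (SE; interval 1.21 to 2.45; limma adjusted p = 0.0462). The call was lost in 12 of 20 alternative settings, over which adjusted p ran from 0.00632 to 0.302, among them each fit that left out 1 array other than citrus replicate 4 (adjusted p = 0.101 to 0.302). By exact permutation of the 4 and 4 arrays, two-sided, each of the 4 genes had p = 0.0286, the smallest that the design allows. Every gene whose groups do not overlap has this value, as 1.47% of all probe sets on the higher and 1.26% on the lower side did. For genes already chosen by limma on these arrays it adds no evidence.

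**Figure D2:**
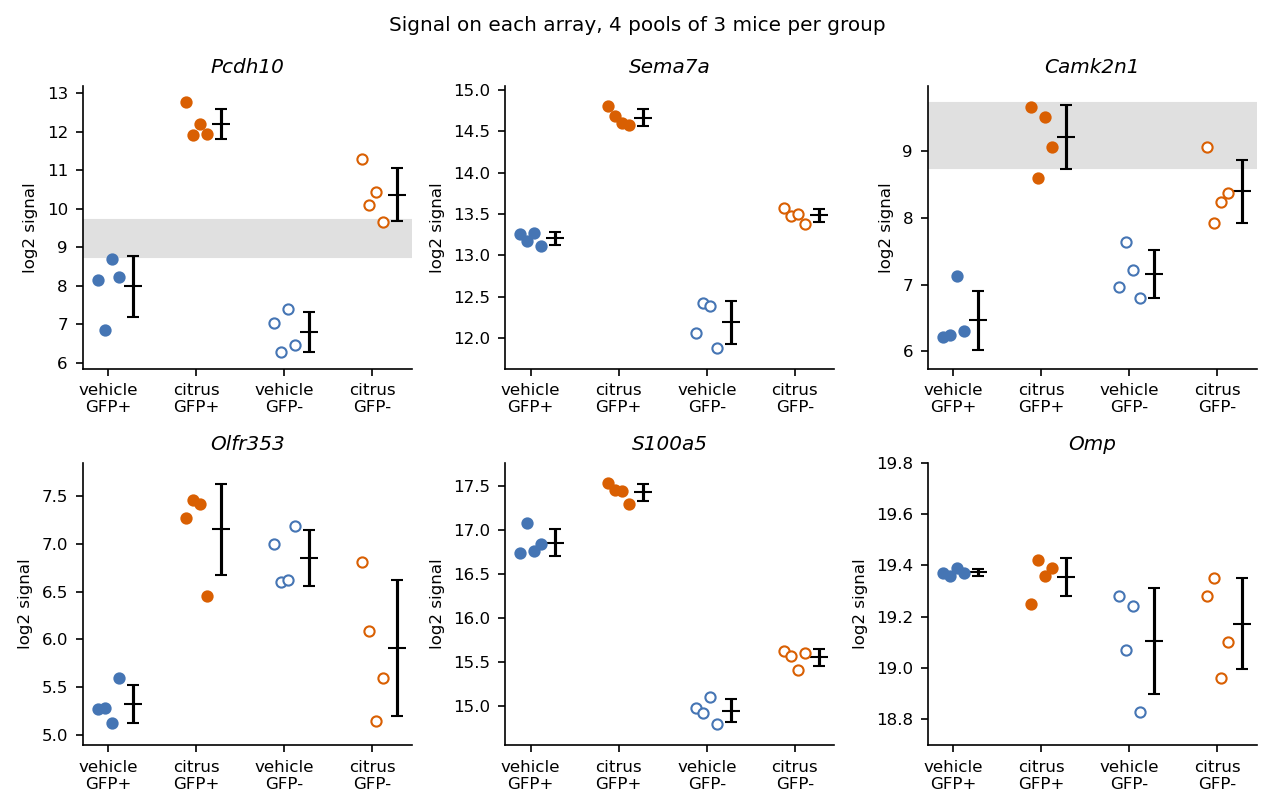
Log2 signal on each array (y axis) for the 4 genes past the threshold, S100a5 and Omp in the 4 groups. Filled points are GFP+ and open points GFP- arrays, orange is citrus and blue vehicle, bars show the mean ± SD of 4 pools, and grey bands span the negative-control 95th percentile of the GFP+ arrays. Pcdh10 in citrus GFP+ cells lies between 11.92 and 12.76, and in vehicle GFP+ cells between 6.84 and 8.70, under the band. The y axes differ and do not start at 0, and the Olfr353 panel lies wholly under the band.

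S100a5, whose gene drives the reporter, was itself higher with citrus within the GFP+ gate. Its signal was 17.53, 17.45, 17.44 and 17.30 in citrus and 16.74, 17.08, 16.76 and 16.84 in vehicle. Every citrus array exceeded every vehicle array, as in 1.47% of all probe sets, which fixes the exact permutation p at 0.0286. The difference of 0.57 ± 0.13 (SE; interval 0.30 to 0.85) had an unadjusted p of 3.9e-04 and an adjusted p of 0.656, which did not pass. Omp, the marker protein of mature OSNs, was at -0.02 ± 0.14 (SE; interval -0.31 to 0.27), with the groups overlapping.

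The list of genes tied to OSN activity held 20 names, of which 19 were measured. It contains Pcdh10, Camk2n1, Sema7a and S100a5 and was drawn up with results of these data known, so its direction is no independent evidence. Its 3 members past the threshold were those first named. In all, 15 members were positive and 4 negative, with a median of 0.30 against 0.01 for all probe sets, and 5 of 19 (26.3%) had every citrus array above every vehicle array, which 1.47% of all probe sets did. The median was 0.17 without citrus replicate 1.

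Besides S100a5, the members that did not pass lay between -0.30 (Calb2) and 1.03 (Lrrc3b). Kcnmb3, a subunit of calcium-activated potassium channels, measured 14.84, 13.76, 13.66 and 14.36 in citrus and 13.58, 13.07, 13.58 and 13.54 in vehicle (0.71 ± 0.33 SE, adjusted p = 0.999). Pcp4l1, a relative of a calmodulin-binding protein, measured 15.76, 15.38, 14.76 and 15.37 against 14.91, 14.36, 14.37 and 15.17 (0.62 ± 0.25, adjusted p = 0.999). Kirrel2, an adhesion molecule that sorts axons and is known to follow OSN activity, measured 16.33, 14.12, 14.32 and 15.27 against 14.72, 14.29, 14.57 and 14.37. Only citrus replicates 1 and 4 stood above the vehicle arrays in Kirrel2, and the groups overlapped. Lrrc3b showed the same 2 arrays high, at 14.84 and 14.43, with 12.68 and 13.33 on replicates 2 and 3, against 11.76 to 13.34 in vehicle. Kirrel3, which in OSNs is known for a pattern complementary to Kirrel2, was at -0.15, and Calb2 (calretinin) at -0.30.

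The wider axon guidance list, with 26 genes measured, had a median of 0.07. Besides Pcdh10 and Sema7a none passed, and the other 24 lay between -0.40 and 0.52. Tenm4, a teneurin that mediates adhesion between cells, was lower on every citrus array, at 6.83, 6.77, 6.50 and 6.79 against 7.26, 7.09, 7.20 and 6.94 (-0.40 ± 0.17 SE, adjusted p = 0.999), all under background. Lower groups that did not overlap occurred in 1.26% of all probe sets. Of the semaphorin receptors, Nrp2 was at -0.18, Plxna3 at -0.32 ± 0.33, Plxna1 at 0.30 ± 0.31 and Plxna4 at 0.15 ± 0.21 (SE).

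Immediate early genes did not pass in any of 21 measured. Their median was 0.20, with 16 positive and 5 negative, and 14 of the 21 lay under background on all GFP+ arrays. No member had groups without overlap. Over all probe sets 1.47% had them on the higher and 1.26% on the lower side, so their absence from 21 genes says little. Nr4a1, an orphan nuclear receptor, was highest at 1.07 ± 0.38 (SE, adjusted p = 0.999), with 8.89, 6.99, 7.40 and 8.27 in citrus and 6.64, 7.10, 6.77 and 6.78 in vehicle. Fosb was at 0.70 ± 0.56, Dusp1, a phosphatase of the MAP kinase pathway, at 0.66 ± 0.39, Egr1 at 0.25 ± 0.90 and Fos at -0.12 ± 0.88 (SE). The standard errors of Fos and Egr1 are more than 4 times that of a typical probe set, so this fit could not detect changes of 2-fold in these genes. These errors come from a spread shared over all 16 arrays, GFP- arrays included, and do not measure the spread among GFP+ arrays alone. Within GFP+ cells the SDs in citrus and vehicle were 0.56 and 0.76 for Fos and 0.64 and 0.87 for Egr1.

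No odour transduction gene passed the test. Of 18 measured, 15 were above background on all 8 arrays, 9 were positive and 9 negative, and the range ran from -0.25 to 0.23. Gnal, the alpha subunit of the olfactory G protein, was at 0.22 ± 0.15, adenylyl cyclase 3 (Adcy3) at -0.02 ± 0.14, the channel subunits Cnga2 and Cnga4 at -0.06 ± 0.15 and -0.05 ± 0.14, and the chloride channel gene Ano2 at 0.04 ± 0.13 (SE). Among 17 genes of signal termination and adaptation Camk2n1 was the member that passed. The receptor kinase Grk3 was at 0.21 ± 0.23 and the arrestin Arrb1 at 0.20 ± 0.26 (SE), both under background on all 8 arrays. The phosphodiesterase Pde1c, above background on all 8, was at 0.18 ± 0.16 (SE). Lists of 19 receptor choice and trafficking genes (median 0.04), 17 synaptic vesicle genes (0.08), 19 ion channels and pumps (0.15) and 16 CREB and cyclic AMP responders (0.10) had no member past the threshold.

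**Figure D3:**
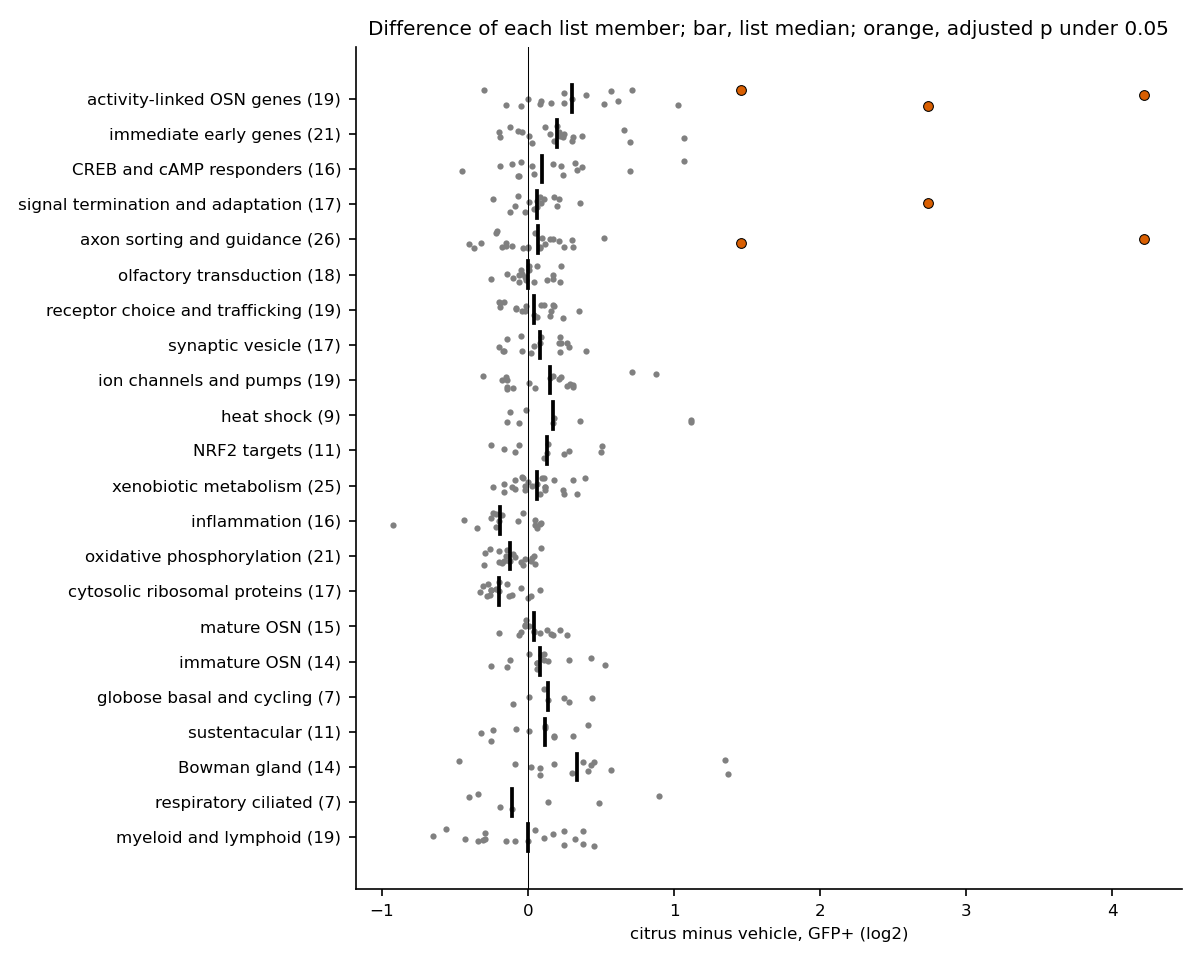
Citrus minus vehicle in GFP+ cells (log2, x axis) for each measured member of 22 gene lists (rows, number measured in brackets). Points are genes, black bars list medians and orange points genes with adjusted p under 0.05. Pcdh10, Camk2n1 and Sema7a, each drawn in every list that holds it, stand apart at 4.22, 2.74 and 1.46. Most other points lie between -0.5 and 0.5.

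Stress and metabolism lists gave no gene past the threshold. Hspa1a, an inducible heat shock gene, differed by 1.12 ± 0.87 (SE), but its pools ran from 10.03 to 12.78 in citrus and from 8.61 to 12.07 in vehicle, and Hspa1b, its near-identical copy, from 9.43 to 12.57 and from 8.21 to 11.67. Of 11 targets of the oxidative stress factor NRF2, Srxn1 (sulfiredoxin) was at 0.51 ± 0.20 and Gclc (glutathione synthesis) at 0.50 ± 0.22, both with adjusted p = 0.999, and the median was 0.13. The 16 inflammation genes had a median of -0.19, with 14 under background on all arrays. Of 17 cytosolic ribosomal protein genes 15 were negative (median -0.20), and of 21 oxidative phosphorylation genes 16 (median -0.12). The ribosomal list averaged 13.50 to 13.65 on citrus and 13.37 to 14.05 on vehicle arrays. For oxidative phosphorylation the means were 13.30 to 13.36 and 13.21 to 13.63. In both lists the citrus arrays lay inside the vehicle range. No gene of the ribosomal and oxidative phosphorylation lists had groups without overlap, where 1.47% of all probe sets did on the higher and 1.26% on the lower side.

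Markers of other cell types varied between pools. Sustentacular markers averaged 6.61 to 7.86 in citrus and 6.36 to 7.79 in vehicle, with 8 of 11 under background on all arrays, 7 positive and a median difference of 0.12. Its highest members were Cyp2g1, a cytochrome P450 (14.37 ± 1.23 in citrus and 14.24 ± 1.46 in vehicle, SD), and Cbr2, a carbonyl reductase (12.18 ± 1.38 and 12.18 ± 1.63). Bowman gland markers averaged 6.01 to 6.64 in citrus and 5.29 to 6.35 in vehicle, with 11 of 14 under background on all arrays. Of these 14 genes 12 were positive, with a median difference of 0.34. At an unadjusted p under 0.05 there were 0, where all probe sets gave 2.06% higher and 1.99% lower. On the higher side 1 (7.14%) had groups without overlap, against 1.47% of all probe sets. Their largest differences were those of Bpifb9a (1.37 ± 1.29 SE) and its neighbour Bpifb9b (1.35 ± 1.27), secreted gland proteins. Of 7 ciliated cell markers, Tppp3 (12.15 ± 0.59 and 12.01 ± 0.55, SD) and Tekt1 (10.41 ± 0.26 and 10.60 ± 0.39) exceeded background on all 8 arrays. The part of these cell types in other results was not tested. Among other markers, Dpysl3 of immature OSNs was at 0.53 ± 0.17, Itgb4 of horizontal basal cells at -0.46 ± 0.20, Dnah5 of ciliated cells at 0.49 ± 0.23, Cdh5 of endothelium at 0.59 ± 0.23 and Nfia, a zonal transcription factor, at 0.51 ± 0.24 (SE), each with adjusted p = 0.999. Nfia exceeded background on all 8 arrays and the other 4 on 0. All were named for an unadjusted p under 0.05, and whether their lists moved as a whole was not tested. In the order given, the list medians were 0.08 (11 positive, 3 negative), -0.07 (3 and 5), -0.11 (3 and 4), -0.07 (3 and 3) and 0.11 (4 and 2). Because whole pools of sorted cells were measured, more cells that express a gene and more RNA of it per cell cannot be told apart.

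Among genes that did not pass, the 8 non-receptor genes with the smallest p in each direction were examined, S100a5 (described above) not counted. On the higher side Cadm3, an adhesion molecule at axons and synapses, measured 10.73, 10.53, 10.34 and 10.43 against 9.97, 9.97, 9.73 and 9.36 (0.75 ± 0.17 SE, adjusted p = 0.656). Ackr1, a chemokine-binding receptor whose gene is the next protein-coding gene to Cadm3, measured 6.99, 6.89, 6.62 and 6.89 against 5.88, 5.69, 5.91 and 6.33 (0.89 ± 0.21, under background). Both sets of groups were apart. Il10rb, an interleukin 10 receptor subunit, measured 11.72, 11.52, 11.61 and 11.67 against 11.06, 10.74, 11.32 and 10.79 (0.65 ± 0.16). Il10rb was above background on all 8 arrays, and its groups did not overlap. Cadm3, Ackr1 and Il10rb were chosen by their small p in this comparison, so the separation of their groups adds no evidence. It occurred in 1.47% of all probe sets on the higher side. Deup1, a protein of centriole assembly in ciliated cells (0.90 ± 0.19), Odr4, whose worm counterpart helps receptors reach the cilium (0.78 ± 0.19), Emp1 (0.81 ± 0.20), H2-Eb2 (0.85 ± 0.21) and Gm11487 (0.76 ± 0.20) were under background on all 8 arrays. Deup1 sits in the ciliated cell list, whose 7 measured members had a median of -0.11.

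On the lower side all 8 genes were under background on every GFP+ array. Ccr2, the receptor that recruits monocytes, measured 3.03, 3.51, 3.12 and 3.66 in citrus and 4.37, 4.70, 4.03 and 4.35 in vehicle (-1.03 ± 0.28 SE), against means of 9.50 and 9.07 in GFP- cells. Stab1, a scavenger receptor (-0.77 ± 0.16), Gria4, a glutamate receptor subunit (-0.77 ± 0.16), Zyx, a focal adhesion protein (-0.74 ± 0.19), Awat2 (-0.72 ± 0.20), Zan (-0.63 ± 0.16), Dcst1 (-0.60 ± 0.17) and Klk4 (-0.50 ± 0.14) completed the group. Their adjusted p lay between 0.392 and 0.999, and at these levels the difference cannot be told from one in background signal.

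Odorant and trace amine receptors leaned towards higher values with citrus. The 1105 probe sets comprised 1091 odorant receptors and 14 trace amine receptors. Of them 764 were positive and 341 negative, and the median was 0.17 against 0.00 for the 18467 other genes. At an unadjusted p under 0.05, 63 (5.70%) were higher and 12 (1.09%) lower, where all probe sets gave 2.06% and 1.99%. Receptors whose groups did not overlap were 24 on the higher side (2.17%) and 4 on the lower (0.362%), against 1.47% and 1.26% of all probe sets. The median receptor signal was 8.06, 7.81, 8.06 and 7.94 on citrus arrays and 7.68, 7.53, 7.86 and 7.86 on vehicle arrays. Citrus replicate 2 lay inside the vehicle range. In the GFP- arrays the median difference of receptors was 0.05, and 23 were higher and 34 lower with unadjusted p under 0.05, where all probe sets gave 2.97% and 2.91%.

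**Figure D4:**
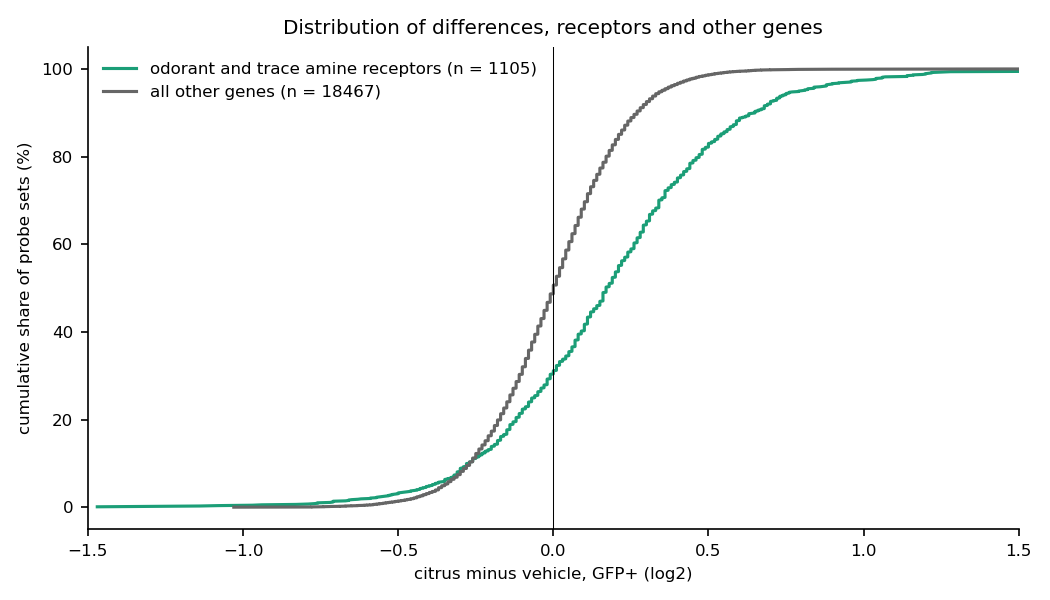
Cumulative share of probe sets (%, y axis) by citrus minus vehicle in GFP+ cells (log2, x axis, drawn from -1.5 to 1.5) for 1105 receptors (green) and 18467 other genes (grey). The receptor curve lies to the right of the other curve from about -0.3 upward, with medians of 0.17 and 0.00.

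The median was 0.19 in the 297 receptors whose mean exceeded the negative-control level and 0.17 in the 808 that did not, against 0.03 and -0.01 for other genes split the same way. Receptors whose citrus arrays all exceeded the vehicle arrays made up 1.35% of the former and 2.48% of the latter, and those with unadjusted p under 0.05 on the higher side 4.71% and 6.06%. The difference between these subsets was not tested. Class I receptors, the family shared with fish, had a median of 0.25 (120 genes), and class II receptors one of 0.17 (948 genes), with 23 unclassed. In GFP- cells the same medians were 0.25 for class I and 0.03 for class II, so the class I median was not particular to the gate. The 24 higher receptors without overlap were all among the 948 class II genes (2.53% of them), against 0 of 120 class I genes, and the difference between the classes was not tested. Vomeronasal receptors, which OSNs do not normally use and of which 322 of 323 lay under background, had a median of -0.04. Background and the receptor count moved with the groups: 426, 382, 458 and 357 receptors exceeded their array's negative-control level in citrus and 391, 311, 267 and 321 in vehicle. The part of background in the lean was not tested. Centring each array on its receptor median turned the receptor median to -0.07 and that of all probe sets to -0.24, and then 25 receptors were higher and 37 lower with unadjusted p under 0.05, where 38 of all probe sets were higher and 1473 lower.

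Receptors supplied most of the largest differences. At least 2-fold differences were found in 41 probe sets higher (0.209%) and 5 lower (0.0255%), and 33 of these 46 were receptors (71.7%, where receptors are 5.65% of probe sets), 29 higher and 4 lower. Only 7 of the 46 exceeded background on all 8 arrays, and 20 lay under it on all 8.

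Olfr1123 differed most among receptors, by 2.87 ± 0.63 (SE; interval 1.54 to 4.21; adjusted p = 0.564). It measured 8.47, 8.13, 10.76 and 7.94 in citrus and 4.29, 7.92, 5.15 and 6.46 in vehicle, so that the lowest citrus array only just exceeded vehicle replicate 2. Without vehicle replicate 2 the difference was 3.53 with an adjusted p of 0.0496, the 1 setting of 21 in which it passed. Over the fits that left out 1 array the difference ran from 2.23 to 3.53 and the adjusted p from 0.0496 to 0.999. Olfr736 measured 8.91, 8.25, 9.66 and 8.03 against 4.47, 7.53, 7.38 and 6.02 (2.36 ± 0.55). Olfr704 measured 6.77, 7.29, 7.60 and 6.45 against 4.94, 5.08, 5.46 and 5.48 (1.79 ± 0.35, adjusted p = 0.305), with clear separation at a signal under background. Olfr1200 was the strongest of the 5 with the smallest p, at 12.87, 12.29, 11.95 and 12.25 against 10.22, 11.84, 10.26 and 10.36 (1.67 ± 0.39, adjusted p = 0.700). Its signal exceeded background on all arrays, and vehicle replicate 2 came close to the lowest citrus array. Together with Olfr353 these are the 5 receptors with the smallest p on the higher side, so the separation of their groups adds no evidence.

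Lower receptors were fewer and weaker. Olfr769 measured 5.64, 6.04, 4.73 and 5.85 in citrus and 7.25, 6.84, 6.60 and 7.45 in vehicle (-1.47 ± 0.31 SE, adjusted p = 0.392). Every citrus array of Olfr769, which was chosen by its small p, was below every vehicle array, all under background. Olfr1322 (-1.32 ± 0.46), Olfr1434 (-0.77 ± 0.26), Olfr1457 (-0.71 ± 0.23) and Olfr1372-ps1 (-0.54 ± 0.19) followed, and of these Olfr1372-ps1 was above background, at 10.12, 10.29, 9.61 and 10.50 against 10.53, 10.69, 10.43 and 11.02.

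Receptor genes lie in clusters, and near relatives can share probes. Among the 5 receptor genes on either side of Olfr704 in gene order, all 10 were positive, from 0.01 to 0.70 with a median of 0.32. Around Olfr1200, 8 of 10 were positive (median 0.43, up to 1.14 in Olfr1196). Around Olfr353, 7 of 10 were positive (median 0.12, range -0.50 to 0.72), around Olfr1123 7 of 10 (median 0.17) and around Olfr736 5 of 10 (median 0.03). Around the receptors that were lower with citrus, 5 of 5 were positive by Olfr1322 (median 0.48), 6 of 10 by Olfr769 (0.29), 6 of 10 by Olfr1457 (0.04), 4 of 10 by Olfr1434 (-0.09) and 7 of 10 by Olfr1372-ps1 (0.12). These medians stand beside 0.17 over all receptors. How far the probe sets of near-identical receptors measure each other was not tested.

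The GFP- cells of the same stimuli show which changes also occurred outside the gate. They too carried mature OSN transcripts, and the mean of the 15 markers lay between 15.72 and 16.05. In citrus and vehicle GFP- cells Omp averaged 19.17 and 19.10 and S100a5 15.55 and 14.94, so cells outside the gate were not free of S100a5 RNA. Their myeloid and lymphoid markers averaged 9.79 to 11.64, more than in GFP+ cells. The labels give 24 mice in pools of 3, too few for 16 separate pools, so GFP+ and GFP- arrays must share mice. They do not say outright that the replicate number marks the shared pool. The fit counted all arrays as independent, so its tests between gates leave the pairing out. Pcdh10 rose in GFP- cells from 7.04, 6.27, 7.39 and 6.46 in vehicle to 11.28, 10.10, 10.44 and 9.64 in citrus (3.57 ± 0.38 SE, limma adjusted p = 5.1e-04). Sema7a rose from 12.06, 12.43, 12.39 and 11.88 to 13.57, 13.48, 13.50 and 13.38 (1.29 ± 0.14, adjusted p = 5.1e-04). The difference between the citrus effects of the gates was 0.65 ± 0.54 for Pcdh10 (unadjusted p = 0.246) and 0.17 ± 0.20 for Sema7a (unadjusted p = 0.406), which leaves room for effects of unequal size. S100a5 was higher by 0.61 ± 0.13 in GFP- cells (adjusted p = 0.442), where its level stayed below that of GFP+ cells. Besides Pcdh10 and Sema7a (0.0102% of probe sets higher), 1 gene passed in GFP- cells, Olfr618 on the lower side (0.00511%).

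With arrays counted as independent, the test of the difference between gates did not pass the threshold for Camk2n1 and the named receptors either. The receptors were named by their p in GFP+ cells, so their GFP- values are given as a description. Camk2n1 measured 9.05, 7.92, 8.23 and 8.37 in citrus and 6.97, 7.64, 7.22 and 6.80 in vehicle GFP- cells, a difference of 1.23 ± 0.28 (SE) that did not pass (adjusted p = 0.502) although the groups were apart. Its effect in GFP+ cells was larger by 1.51 ± 0.40 (unadjusted p = 0.00159, adjusted p = 0.999). Olfr353 went the other way in GFP- cells, at 6.81, 6.09, 5.15 and 5.60 in citrus and 7.00, 6.60, 6.62 and 7.19 in vehicle (-0.94 ± 0.29). The gates differed by 2.77 ± 0.42 for Olfr353 (unadjusted p = 4.1e-06, adjusted p = 0.0807). For Olfr704, Olfr1200, Olfr736 and Olfr1123 the GFP- differences were -0.52 ± 0.35, -0.56 ± 0.39, -0.05 ± 0.55 and -0.11 ± 0.63 (SE). Olfr1123 was at a higher level outside the gate, with means of 12.47 in citrus and 12.57 in vehicle GFP- cells against 8.83 and 5.95 in GFP+ cells, and so was Olfr736, with 10.21 and 10.26 against 8.71 and 6.35. Olfr1200 was at 11.73 and 12.28 in GFP- cells against 12.34 and 10.67 in GFP+ cells. Over all probe sets 0 passed in this test of the difference between gates by limma, with 722 (3.69%) at an unadjusted p under 0.05. With the pool of mice as a random block 1 passed, Olfr353.

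**Figure D5:**
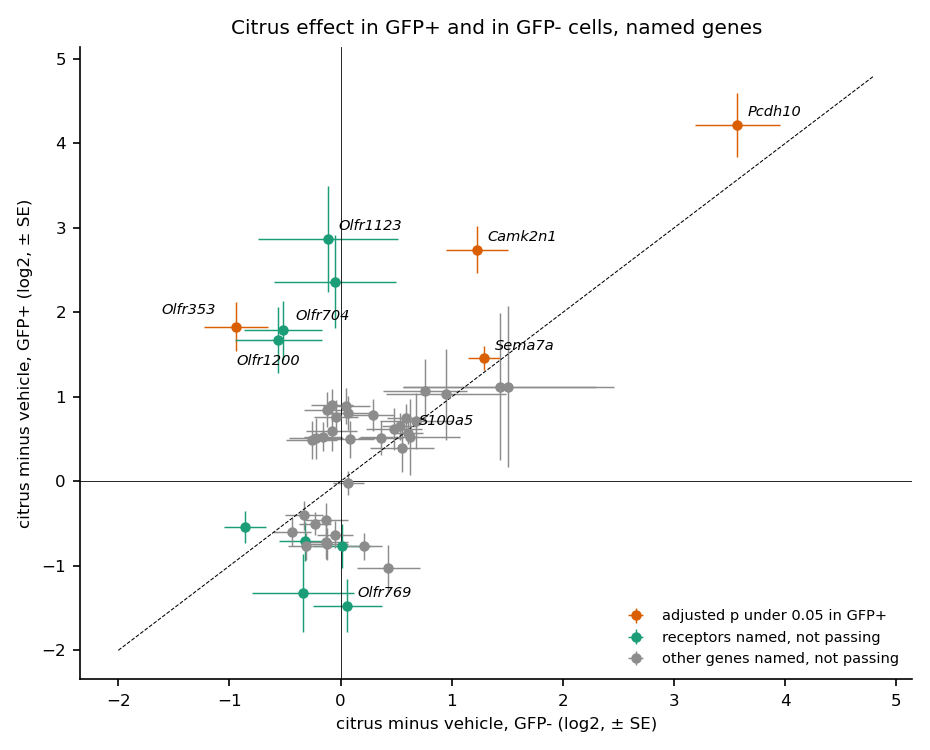
Citrus minus vehicle in GFP+ cells (y axis) against the same in GFP- cells (x axis), log2 ± SE, for the 47 named genes. Orange marks adjusted p under 0.05 in GFP+ cells, green other receptors and grey other genes, and the dashed line is equality. Pcdh10 and Sema7a lie near the line at 4.22 and 3.57 and at 1.46 and 1.29, Camk2n1 lies above it, and Olfr353, Olfr704 and Olfr1200 are positive in GFP+ and negative in GFP- cells.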

How the data were processed

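RNA was measured on Clariom S mouse arrays, with biotinylated cRNA made from 50 to 100 ng of total RNA per the labels' protocols. Log2 signals of 28846 probe sets were deposited. The submitters' processing notes name Affymetrix Expression Console, and SST-RMA appears in a label as the source of the gene-level values, an averaging method that transforms the signal. The genome build is not given in the sources used here. Of the probe sets, 6640 were controls and 2634 had no symbol in the platform annotation, leaving 19572, all matched by Entrez identifier. For the 55 symbols with several probe sets, the one with the highest mean was named.

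The test was limma's (version 3.58.1, R 4.3.3; lmFit and eBayes, two-sided), with 1 mean per group over all 16 arrays, no pairing and Benjamini-Hochberg adjustment over 19572 probe sets. Errors beside differences are standard errors. Single genes were also tested by exact permutation. The test was checked on simulated data. Arrays give no read depth, so their number limits precision. Replicates are pools of mice, per the labels.

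Named genes were S100a5, Omp, Pcdh10, Camk2n1 and Sema7a, every gene past the threshold, the 8 non-receptor genes and 5 receptors with the smallest p in each direction, and up to 3 members per list. Pcp4l1, Lrrc3b, Kirrel2, Cidea, Hspa1a, Hspa1b and other list, family, neighbour or gland genes were named after their values were seen. The members and lists were chosen with earlier results of these data known. Class I receptors were those with MOR family numbers up to 42. Promoters came from RefSeq, and plots were made in Python 3.11.15 (matplotlib 3.10.9).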

Additional observations from a re-analysis of the deposited data

Results flagged for a closer look

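In 4 of 94 groups of 4 arrays, over the 47 named genes, 1 array lay far from the other 3 by Dixon's criterion, which chance alone passes in about 1 group in 20. All 4 were vehicle arrays. Camk2n1 was 7.13 on vehicle replicate 3 and 6.21 to 6.30 on the others. Olfr1200 was 11.84 on vehicle replicate 2 and 10.22 to 10.36 on the others, which makes this array the nearest to citrus. Kcnmb3 was 13.07 on vehicle replicate 2 and 13.54 to 13.58 on the others. Cidea, a lipid droplet protein in the activity list, was 11.41 on vehicle replicate 3 and 11.97 to 12.08 on the others, against 11.94 to 12.62 in citrus.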

How the results depend on the processing

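Over 13 alternative settings and 8 fits that each left out 1 GFP+ array, 43 of the 47 named genes kept direction and side of the threshold wherever they could be tested. The exceptions were Olfr353, Sema7a with receptor centring, Olfr1123 without vehicle replicate 2, and Omp. The difference of Omp, near 0, turned to 0.02 when mature OSN markers set the centre of each array. It ranged from -0.04 to 0.02 when 1 array was left out. Only 4 of the 47 had passed in the main fit, so for the rest staying above the threshold says little. Of these 4, Pcdh10 passed in 21 of 21 settings and Camk2n1 in 20 of 20. Sema7a passed in 20 of 21 and Olfr353 in 8 of 20. Genes higher with citrus numbered 2 (Pcdh10 and Sema7a) when only probe sets with a mean above the negative-control 95th percentile were tested, which removes Camk2n1 and Olfr353, and 3 to 4 when 1 array was left out. Genes whose citrus effect differed between the gates numbered 1 (Olfr353) with the pool of mice as a random block, with centring on mature OSN markers or on odorant receptors, and with a trended robust prior, and 0 to 1 when 1 array was left out (1 without citrus replicate 4).

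Replicate numbers are shared by the citrus and vehicle groups, but the labels name no shared litter or day, and same-numbered GFP+ arrays correlated at 0.32, 0.14, 0.33 and 0.07 after group means were removed, with 6 of 8 arrays closest to their own number. With the number as a replicate block, 3 genes were higher, over 16 arrays and over the 8 GFP+ arrays alike, and Olfr353 had an adjusted p of 0.0729 and 0.0822. Receptors with unadjusted p under 0.05 then numbered 91 higher and 15 lower, and 175 and 33, of 546 and 473, and 639 and 488, among all probe sets. Signal over background limits most receptors: 559 of 1105 lay under the negative-control 95th percentile on all GFP+ arrays.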
